A study of Mus musculus with 18 samples.

Results

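The genes of phospholipases and of the enzymes that make eicosanoids were followed in RNA labelled as spinal cord microglia from healthy mice, mice with experimental autoimmune encephalomyelitis (EAE, a mouse model of multiple sclerosis) and EAE mice given metformin, an oral antidiabetic drug. There were 10 such genes among the 39017 rows of the count table, found by matching Ensembl identifiers to gene symbols: Pla2g2d, Pla2g4a, Pla2g7, Pla2g15, Ptgs1, Ptgs2, Hpgds, Alox5, Alox5ap and Ltc4s. They were chosen by their measured levels and changes in these same libraries, in all 3 comparisons. Their levels and fitted changes are therefore descriptions without p-values. Adjusted p-values are given for other genes of the pathway. The lists of those genes were also chosen with earlier results of these data known, so these p-values are no independent support. All 10 passed the filter on low counts.

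The 18 RNA libraries came from female mice labelled wild type, with 6 libraries in each of the groups healthy with control treatment, EAE with control treatment and EAE with metformin. All came from the Tmem119-Cre:RiboTag line, in which Cre under the promoter of the microglial gene Tmem119 switches on an epitope tag on ribosomes. Total RNA is the molecule labelled, and no pull-down of tagged ribosomes is described. Age, dose and time of treatment are not labelled. Whether each replicate is its own animal is not labelled either, and the p-values cover the spread among these libraries, which may be technical. Levels are given as CPM, a gene's counts over the total of its library after adjustment by TMM factors, and changes as log2 change ± SE.

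Eicosanoids are made from arachidonic acid, which phospholipase A2 enzymes cut from membrane phospholipids. Cyclooxygenases turn it into prostaglandin H2, the precursor of prostaglandins and thromboxane, and 5-lipoxygenase with its activating protein turns it into leukotriene A4. Microglia are macrophages that live in brain and spinal cord, and in the mouse cyclooxygenase 1 is their constitutive cyclooxygenase.

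The library labelled metformin EAE replicate 22 stood apart from its group. Its root mean square log2 distance was 0.581 to the mean of the healthy libraries, 1.20 to that of control EAE and 0.951 to that of the other 5 metformin libraries, whereas those 5 lay 0.847 to 1.14 from healthy and 0.497 to 0.652 from control EAE. Changes with metformin are given with all libraries and without it. Control EAE replicate 10 was also farther from the rest of its group (0.835) than the other 5 control EAE libraries (0.416 to 0.589). Totals were 46.2 to 58.3 M counts per library (M, mega). The summed CPM of 8 microglial markers was 9917 to 10952 in healthy, 2862 to 4742 in control EAE, 5244 to 7873 in the 5 other metformin libraries and 10879 in replicate 22. That of 10 markers of monocyte-derived cells was 5.11 to 11.6, 249 to 548, 170.2 to 548 and 12.1, and that of 7 markers of border macrophages (Pf4 at 0 in all libraries) was 0.808 to 2.42, 53.6 to 107, 22.7 to 46.3 and 3.59. That of 6 endothelial markers (Cldn5 at 0 in all libraries) was 8.56 to 23.3, 56.4 to 140, 55.2 to 106 and 12.5, and that of 7 markers of fibroblasts and mural cells was 14.1 to 77.2, 305 to 676, 198 to 423 and 33.2. In the same order, oligodendrocyte markers (7 genes) summed to 3373 to 3833, 2654 to 3387, 2604 to 2840 and 3172 CPM. Neuron markers (8 genes) summed to 362 to 499, 162 to 245, 208 to 274 and 495, and astrocyte markers (6 genes) to 487 to 534, 404 to 467, 378 to 507 and 559. In control EAE against healthy, 5 of 6 oligodendrocyte markers tested and 8 of 8 neuron markers were lower. Of 6 astrocyte markers, 2 were higher and 3 lower. Mitochondrial genes took 0.236 to 0.714% of counts in healthy, 0.0774 to 0.177% in control EAE, 0.184 to 0.305% in the 5 other metformin libraries and 0.884% in replicate 22. Healthy replicates 3 and 4 held 0.236 and 0.238%, within the range of those 5 metformin libraries. Healthy replicates 11, 12, 19 and 20 held 0.643 to 0.714%. In such bulk samples, fewer cells of a type and less RNA per cell cannot be told apart. Marker levels moved with the groups, and the mitochondrial share differed both between groups and within healthy. Their part in the results below was not tested.

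**Figure D1:**
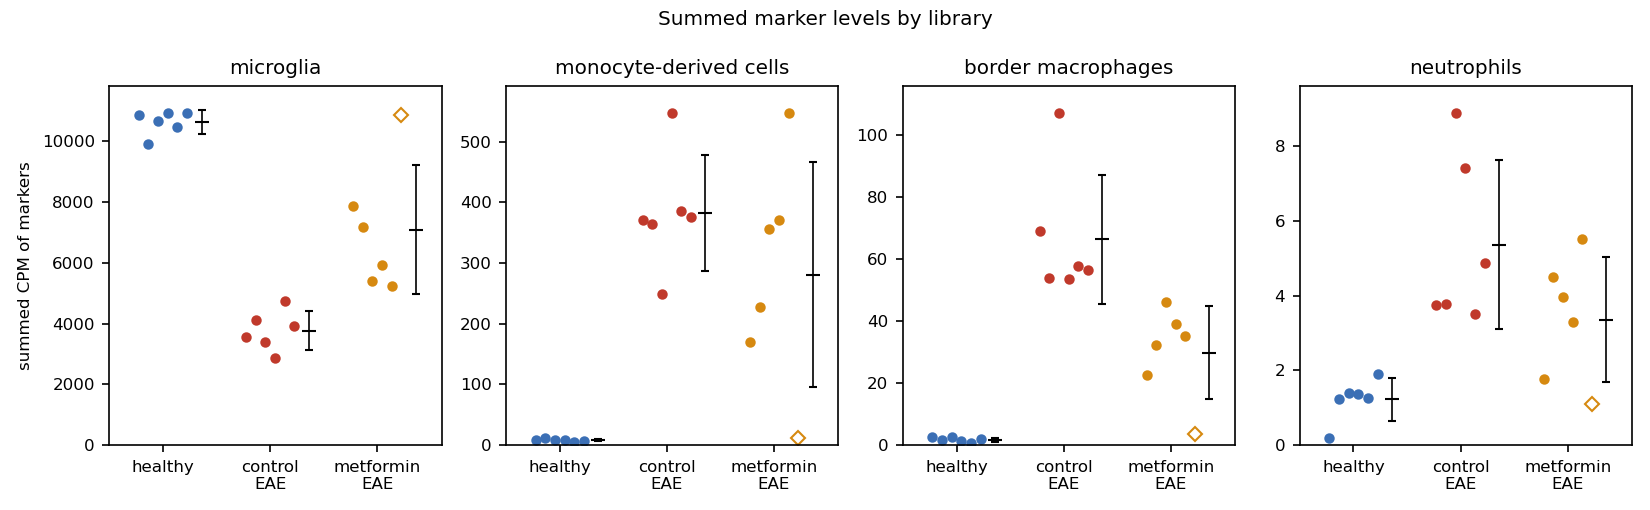
Summed CPM (vertical axis, linear) of markers of microglia, monocyte-derived cells, border macrophages and neutrophils in each library, by group. Points are libraries, the open diamond is the library labelled metformin EAE replicate 22, and the black bar is the mean with its SD (n = 6). Microglial sums of control EAE (2862 to 4742) lie below all healthy ones (9917 to 10952), and the open diamond (10879) lies among the healthy libraries.

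Promoter sequence just before the transcription start is shown for the 5 members whose RefSeq start coincides with the start in the gene annotation, because they include the members with the largest differences in either direction. They are the last 100 bases before the RefSeq start (GRCm38.p6, the assembly also called mm10), read 5′ to 3′ on the strand of the gene. Capitals mark the GC box GGGCGG and the core of a PU.1 site, GAGGAAGT, searched on both strands. PU.1 is the transcription factor that specifies macrophages and microglia.
Ptgs1 (chr2:36230326-36230425, plus strand): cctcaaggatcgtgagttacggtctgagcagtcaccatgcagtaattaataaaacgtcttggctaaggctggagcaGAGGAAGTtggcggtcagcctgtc
Alox5 (chr6:116461179-116461278, minus strand): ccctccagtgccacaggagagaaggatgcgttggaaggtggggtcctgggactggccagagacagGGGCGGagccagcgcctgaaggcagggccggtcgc
Pla2g2d (chr4:138775635-138775734, plus strand): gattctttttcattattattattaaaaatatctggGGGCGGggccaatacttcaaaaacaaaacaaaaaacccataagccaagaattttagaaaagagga
Pla2g4a (chr1:149961291-149961390, minus strand): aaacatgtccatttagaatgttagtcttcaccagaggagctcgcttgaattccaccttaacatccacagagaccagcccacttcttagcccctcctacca
Ptgs2 (chr1:150099931-150100030, plus strand): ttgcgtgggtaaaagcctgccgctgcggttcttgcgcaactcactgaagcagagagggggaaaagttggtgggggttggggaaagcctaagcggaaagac
RefSeq promoters were found for 9 of the 10 members (not Alox5ap), and all 250 bases before the start were searched. The PU.1 core was present in Ptgs1 (24 to 17 bases before the start) and Hpgds (49 to 42 bases before it), and in 2.44% of 27025 mouse promoters of the same length. The GC box was present in Alox5, Pla2g2d, Pla2g7, Pla2g15 and Ptgs2, where it lies farther upstream than the 100 bases shown, and in 32.9% of all promoters. No member held the TATA box TATAAA (13% of promoters), the AP-1 site TGACTCA (4.43%), the cyclic AMP response element TGACGTCA (1.62%) or the ETS core CCGGAAGT (2.93%). A match is a description of these letters and was not tied to any change in level.

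Among the phospholipases, Pla2g2d and Pla2g7 were far higher in EAE than in healthy cord, Pla2g4a was lower in control EAE and higher again with metformin, and Pla2g15 was at like levels in all groups. Pla2g2d (ENSMUSG00000041202, chromosome 4, 138775735 to 138782046 in mm10) encodes a secreted phospholipase A2 known from dendritic cells and macrophages of lymphoid tissue. It was at 0.000 to 0.143 CPM in healthy (median 0.118, 35 counts over 6 libraries), 11 to 36.6 CPM in control EAE (median 26.3) and 5.11 to 25.6 CPM in the 5 other metformin libraries (median 12.1). Replicate 22 held 0.036 CPM. No healthy library reached the level of the low-count filter, so the gene passed it through EAE libraries and had to differ from healthy. No EAE library other than replicate 22 came near the healthy range. The log2 change was 7.96 ± 0.96 in control EAE against healthy. Metformin against control EAE gave -1.19 ± 0.64, or -0.92 ± 0.39 without replicate 22, and the groups overlapped either way. The lowest 2 levels of the 5 other metformin libraries, 5.11 and 6.66 CPM, were below every control EAE library. Summed markers of dendritic cells (6 genes, all detected) were 7.09 to 9.81 CPM in healthy, 6.24 to 7.27 in control EAE, 7.72 to 10.4 in the 5 other metformin libraries and 10.5 in replicate 22.

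Pla2g7 (ENSMUSG00000023913, chromosome 17, 43568098 to 43612201) encodes the lipoprotein-associated phospholipase A2, a secreted enzyme that inactivates platelet-activating factor (PAF). It was at 9.48 to 11.7 CPM in healthy (median 11.1), 64.1 to 129 CPM in control EAE (median 73.0) and 33.8 to 92.6 CPM in the 5 other metformin libraries (median 60.0). Replicate 22, at 11.2 CPM, lay within the narrow healthy range. The change was 2.98 ± 0.36 in control EAE against healthy. Metformin against control EAE gave -0.67 ± 0.33, or -0.46 ± 0.22 without replicate 22, with overlapping groups. Exons of Pla2g7 share 319 bases with the antisense gene 1700071M16Rik (30 to 174 counts per library), and whether counting used strand is not given in the sources used here.

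Pla2g4a (ENSMUSG00000056220, chromosome 1, 149829618 to 149961290) encodes cytosolic phospholipase A2 alpha, which releases arachidonic acid for eicosanoid synthesis. It was at 12.2 to 16.8 CPM in healthy (median 14.1), 6.70 to 13.2 CPM in control EAE (median 9.91) and 14 to 17.8 CPM in the 5 other metformin libraries (median 15.8), with 20.6 CPM in replicate 22. Every metformin library was above every control EAE library, and 5 of 6 control EAE libraries were below every healthy library. The change was -0.55 ± 0.14 in control EAE against healthy and 0.75 ± 0.14 in metformin against control EAE (0.68 ± 0.14 without replicate 22). Against healthy, metformin libraries differed by 0.20 ± 0.14, or 0.13 ± 0.14 without replicate 22, and overlapped them.

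Pla2g15 (ENSMUSG00000031903, chromosome 8, 106150399 to 106164715) encodes the lysosomal phospholipase A2. It was at 614 to 816 CPM in healthy (median 655), 450.2 to 715 CPM in control EAE (median 616) and 533 to 688 CPM in all 6 metformin libraries (median 614). The 3 ranges overlapped, and replicate 22, at 601 CPM, lay inside its own group. Changes were -0.15 ± 0.11 in control EAE against healthy and 0.01 ± 0.11 in metformin against control EAE, with and without replicate 22. When library sizes were not adjusted by TMM, the first change was -0.58, because that scaling moved the median of all genes by -0.42.

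Of the cyclooxygenases, Ptgs1 was at a level in healthy cord that no EAE library other than replicate 22 reached, and Ptgs2 was near 0 throughout. Ptgs1 (ENSMUSG00000047250, chromosome 2, 36230426 to 36252272) encodes cyclooxygenase 1. It was at 633 to 769.9 CPM in healthy (median 673), 208 to 259 CPM in control EAE (median 234) and 299 to 427 CPM in the 5 other metformin libraries (median 353). These 3 ranges did not overlap, and replicate 22 held 686 CPM, within the healthy range. The change was -1.53 ± 0.15 in control EAE against healthy. With metformin the level differed from control EAE by 0.81 ± 0.15, or 0.61 ± 0.10 without replicate 22, and metformin against healthy gave -0.72 ± 0.15, or -0.92 ± 0.10. Platelets are also known for Ptgs1. Of 6 platelet markers Pf4, Ppbp and Gp1ba were at 0 in all libraries, and Gp9 and Itga2b had the highest means. Only 2 of the 6 passed the low-count filter. Of these, 1 was called lower in control EAE against healthy, and 1 was called higher in metformin against control EAE. The sum of the list, which rests on few genes, was 29.4 to 53.9 CPM in healthy and 0.515 to 1.21 in control EAE. It was 1.5 to 8.42 in the 5 other metformin libraries and 23.5 in replicate 22. The part of platelets in the level of Ptgs1 was not tested.

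Ptgs2 (ENSMUSG00000032487, chromosome 1, 150100031 to 150108227) encodes cyclooxygenase 2, the inducible form. Healthy libraries held 2 counts in all, both in replicate 4 (0.035 CPM). Control EAE libraries held 47 counts, from 0 in replicates 1 and 9 to 27 in replicate 10 (0.484 CPM). Metformin libraries held 121 counts, from 8 to 43 per library (0.146 to 0.958 CPM), and replicate 22 held 10 of them (0.181 CPM). The gene reached the level of the low-count filter in 1 control EAE library, 5 metformin libraries and 0 healthy libraries. It passed the filter through these EAE libraries, so it had to differ from healthy. As most of them were metformin libraries, the filter also bears on the ratio of metformin to control EAE. The ratio of control EAE to healthy was 30.2 with a 95% counting interval of 7.91 to 257, and that of metformin to control EAE was 2.32 (1.64 to 3.32), or 2.60 (1.83 to 3.73) without replicate 22. These intervals cover counting error and not the spread between libraries, which overlapped.

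Hpgds (ENSMUSG00000029919, chromosome 6, 65117293 to 65144908) encodes the hematopoietic prostaglandin D synthase, which uses the product of the cyclooxygenases. It was at 67.4 to 132 CPM in healthy (median 111), 56.4 to 123 CPM in control EAE (median 81.8) and 76.9 to 97.2 CPM in the 5 other metformin libraries (median 89.0), with 125 CPM in replicate 22. All groups overlapped. Changes were -0.32 ± 0.17 in control EAE against healthy and 0.13 ± 0.17 in metformin against control EAE (0.03 ± 0.17 without replicate 22). The first change was -0.42 without healthy replicate 3 and -0.45 without control EAE replicate 10, which were the lowest and the highest library of their groups.

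The 3 members of the leukotriene branch were all lower in control EAE than in every healthy library, and of these Alox5 was higher in every metformin library than in control EAE. Alox5 (ENSMUSG00000025701, chromosome 6, 116410077 to 116461178) encodes 5-lipoxygenase. It was at 38.2 to 48.3 CPM in healthy (median 44.4), 10.2 to 15.2 CPM in control EAE (median 13.1) and 16.3 to 26.7 CPM in the 5 other metformin libraries (median 19.8), with 42.0 CPM in replicate 22. The ranges of healthy, control EAE and the 5 metformin libraries did not overlap. The change was -1.78 ± 0.18 in control EAE against healthy. With metformin the difference from control EAE was 0.91 ± 0.18, or 0.68 ± 0.13 without replicate 22, and against healthy -0.87 ± 0.18, or -1.10 ± 0.13. Neutrophils and mast cells are known for 5-lipoxygenase. Summed neutrophil markers were 0.178 to 1.91 CPM in healthy, 3.50 to 8.90 in control EAE, 1.77 to 5.52 in the 5 other metformin libraries and 1.11 in replicate 22. Only 3 of these 9 markers passed the low-count filter, and in control EAE against healthy 2 were higher and 1 lower. Of 8 mast cell and basophil markers, 6 were at 0 in all libraries, with a highest sum of 0.215 CPM.

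Alox5ap (ENSMUSG00000060063, chromosome 5, 149264767 to 149288153) encodes the membrane protein that presents arachidonic acid to 5-lipoxygenase. It was at 219 to 276 CPM in healthy (median 263), 97.9 to 180 CPM in control EAE (median 116) and 106 to 161 CPM in the 5 other metformin libraries (median 128), with 236 CPM in replicate 22. Control EAE and metformin ranges overlapped, both below healthy except for replicate 22. The change was -1.06 ± 0.17 in control EAE against healthy. The metformin change against control EAE was 0.27 ± 0.17, or 0.10 ± 0.14 without replicate 22.

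Ltc4s (ENSMUSG00000020377, chromosome 11, 50236461 to 50238616) encodes leukotriene C4 synthase, which joins leukotriene A4 to glutathione. It was at 41.7 to 53.5 CPM in healthy (median 45.9), 13.9 to 21.3 CPM in control EAE (median 15.8) and 9.62 to 23.7 CPM in the 5 other metformin libraries (median 13.5), with 49.7 CPM in replicate 22. Of those 5 libraries, 1 was above and 3 were below all control EAE libraries. The change was -1.46 ± 0.29 in control EAE against healthy. Metformin against control EAE turned from 0.34 ± 0.29 to -0.09 ± 0.18 without replicate 22. Exons of Ltc4s share 268 bases with the antisense gene Gm26542 (148 to 903 counts per library).

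**Figure D2:**
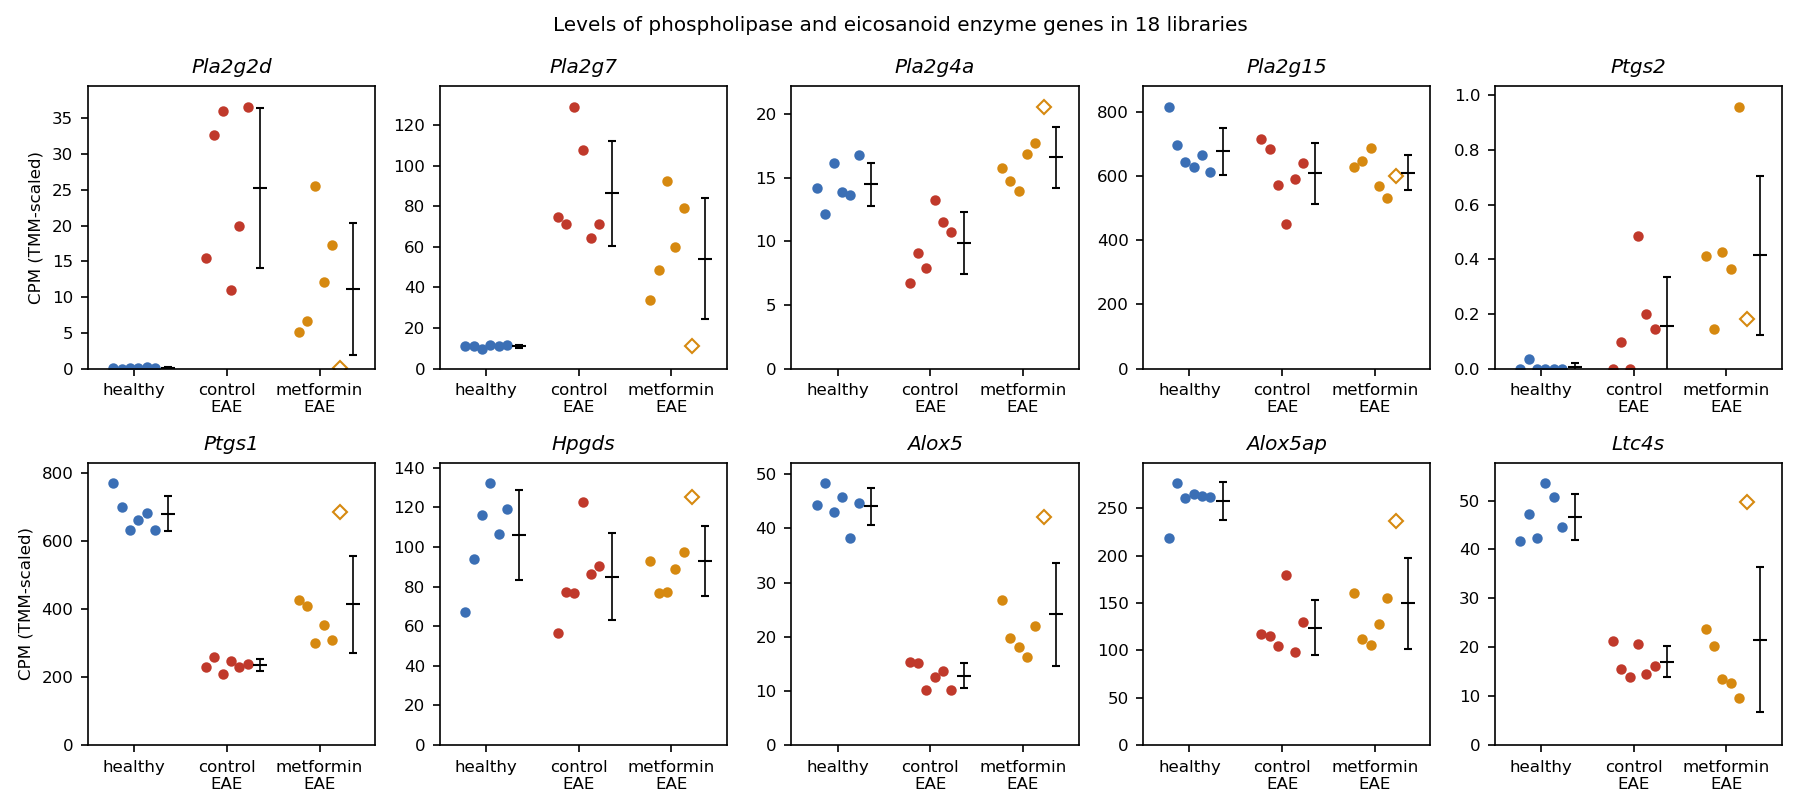
TMM-adjusted CPM (vertical axes, linear from 0, each gene on its own scale) of the 10 genes in each library, by group. Points are libraries, open diamonds are the library labelled metformin EAE replicate 22, and black bars are the mean with its SD (n = 6). Ptgs1 shows 3 separate bands (633 to 769.9, 208 to 259 and 299 to 427 CPM) with the diamond (686) in the healthy band.

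In all, 8 of the 10 genes passed the adjusted p threshold of 0.05 in control EAE against healthy (3 higher, 5 lower), where 62.4% of the 16740 genes tested did (31.7% higher, 30.7% lower). Since the genes were chosen with all 3 contrasts in view, these counts and those that follow are descriptions and nothing is read from them. The ranges of the groups did not overlap for 6 of 10 (Pla2g2d and Pla2g7 higher; Ptgs1, Alox5, Alox5ap and Ltc4s lower), beside 39.4% of all genes tested (20.1% higher, 19.3% lower). In metformin against control EAE, 3 of 10 passed (Ptgs1, Alox5 and Pla2g4a, all higher and without overlap), beside 24.6% of genes, of which 12.5% were higher. Without replicate 22 these 3 passed again, beside 18.3% of genes (8.5% higher), and groups of 10.3% of genes (4.9% higher), or 11.2% without replicate 22 (5.39% higher), did not overlap. In metformin against healthy, 7 of 10 passed with all libraries (36.6% of genes, 20.3% higher and 16.3% lower) and without replicate 22 (46.3%, 23.9% higher and 22.5% lower): Pla2g2d, Pla2g7 and Ptgs2 were higher and Ptgs1, Alox5, Alox5ap and Ltc4s lower. Groups did not overlap for Ptgs2 alone with all libraries (12.9% of genes, 6.82% higher), and for all 7 without replicate 22 (35.5%, 18.9% higher and 16.6% lower). The median log2 change of the 10 genes was -0.44 in control EAE against healthy and 0.31 in metformin against control EAE (0.06 without replicate 22), beside medians of -0.003 and 0.01 over all genes. The comparisons share libraries, so their values are set side by side and not compared.

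**Figure D3:**
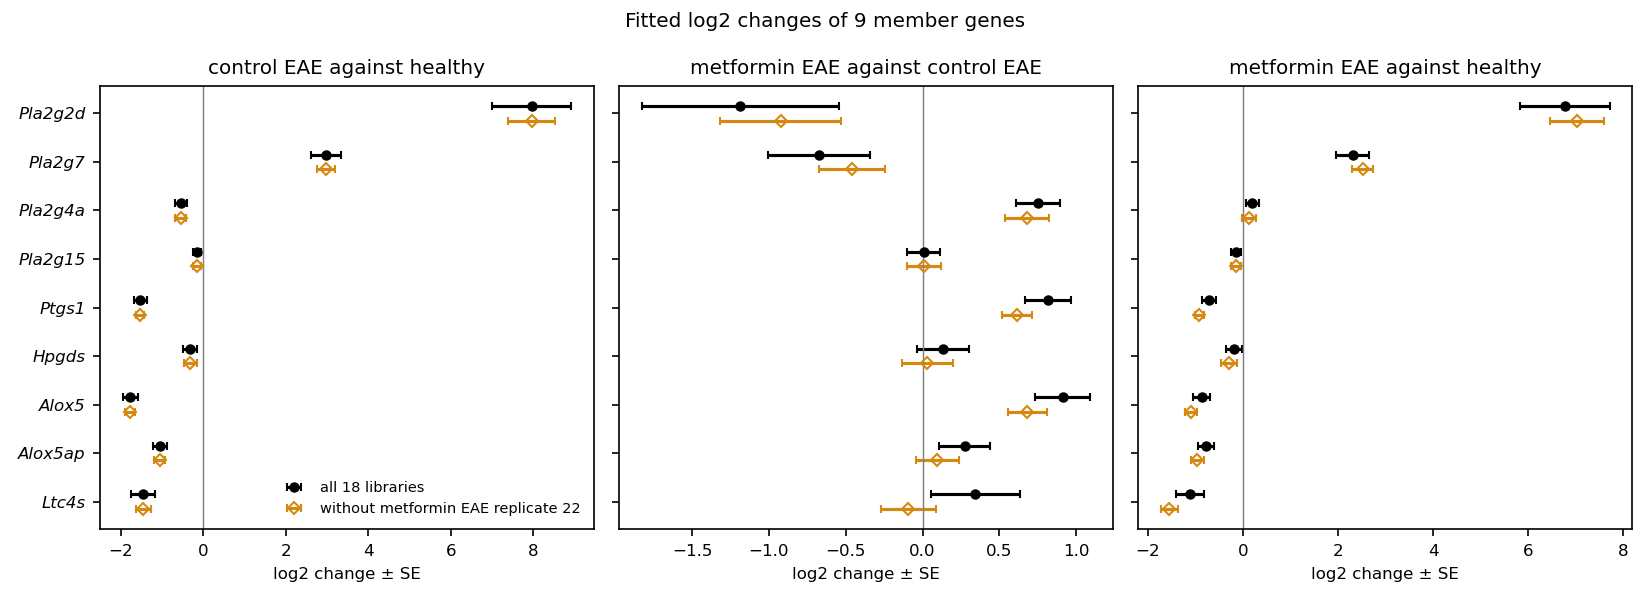
Fitted log2 change with its SE (horizontal axes, each comparison on its own scale) of 9 genes, from all 18 libraries (filled circles) and without metformin EAE replicate 22 (open diamonds). Ptgs2 is left out because healthy libraries held 2 counts. In metformin against control EAE, Pla2g4a, Ptgs1 and Alox5 lie at 0.75, 0.81 and 0.91 and stay above 0.6 without replicate 22, whereas Ltc4s moves from 0.34 to -0.09.

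Levels of different genes were compared per kilobase of exon. In healthy cord the order of mean CPM per kilobase was Pla2g15 (225 ± 24.5, SD, n = 6), Alox5ap (181 ± 13.9), Ptgs1 (175 ± 13.2), Ltc4s (46.1 ± 4.64), Hpgds (16.5 ± 3.54), Alox5 (10.7 ± 0.818), Pla2g7 (3.77 ± 0.271), Pla2g4a (2.27 ± 0.266), Pla2g2d (0.044 ± 0.024) and Ptgs2 (0.001 ± 0.003). Alox5ap and Ptgs1 differed by less than their spread. In control EAE, Pla2g15 (202 ± 31.5), Alox5ap (87.3 ± 20.7) and Ptgs1 (60.5 ± 4.45) were again the highest. Pla2g7 (29.7 ± 8.90) came next, above Ltc4s (16.8 ± 3.15), Hpgds (13.2 ± 3.42) and Pla2g2d (11.3 ± 4.99), whose levels lay within their spread of each other. Alox5 (3.13 ± 0.549) and Pla2g4a (1.54 ± 0.378) followed. In the 5 metformin libraries other than replicate 22, Alox5ap (93.3 ± 17.6) and Ptgs1 (92.5 ± 14.9) were level with each other.

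Deviations from the group means over the 18 libraries show which genes varied together within groups. These correlations share libraries and depth and are given as descriptions. With all libraries Ptgs1 ran with Ltc4s (Pearson's r = 0.88) and against Pla2g7 (-0.91), and without replicate 22 the values were 0.66 and -0.71. Pla2g2d and Pla2g7 had r = 0.83 with replicate 22 and 0.35 without it. Hpgds ran against Pla2g15 (-0.81, and -0.87 without replicate 22) and with Pla2g4a (0.76, and 0.73). The 2 genes at 5 CPM or more most like each member over the 18 libraries, with r there and then without replicate 22, were the following. Pla2g2d was most like Colec12 (0.942 and 0.685) and Ripk4 (0.940 and 0.776), and Pla2g7 most like Serpinb6a (0.969 and 0.899) and Msrb1 (0.968 and 0.912). Pla2g4a was most like Peli1 (0.937 and 0.932) and Papola (0.921 and 0.939), and Pla2g15 most like Cds2 (0.965 and 0.966) and Sirpa (0.942 and 0.959). Ptgs1 was most like Adgrg1 (0.945 and 0.875) and Spock2 (0.940 and 0.790), and Hpgds most like Nkrf (0.959 and 0.954) and Senp6 (0.941 and 0.931). Of the 2 for Alox5 only Kcnip3 (0.913 and 0.789) is given. Alox5ap was most like Camk2n1 (0.926 and 0.869) and Oaf (0.885 and 0.792), and Ltc4s like Idh2 (0.944 and 0.905) and Susd3 (0.942 and 0.882). For Ptgs2, with few counts, the values were 0.882 and 0.881 for Cpsf6 and 0.878 and 0.900 for Canx.

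Other genes of the pathway were taken from 7 lists of 103 genes, of which 80 passed the low-count filter and 6 were at 0 in all libraries. As these lists were chosen with earlier results of these data known, their counts and adjusted p-values are descriptions too. In control EAE against healthy 57 of the 80 (71.3%) passed the test (29 higher, 28 lower), beside 62.4% of all genes. Of all genes 31.7% were higher and 30.7% lower, and these shares stand beside the counts of each list in this comparison. The comparison asks how RNA of these samples differs with the disease. Of 9 prostanoid synthases 7 rose and none fell, beside 31.7% of all genes that were higher. Those that rose include the inducible prostaglandin E synthase Ptges (2.59 ± 0.35, adjusted p = 4.48e-06), the prostacyclin synthase Ptgis (1.91 ± 0.27) and Ptges2 (0.54 ± 0.09), which did not pass with library totals alone (0.11, adjusted p = 0.333). Endothelial, fibroblast and mural cell marker sums, given above, were also higher in control EAE than in healthy, though single markers went both ways. Of 5 endothelial markers tested, 3 were higher and 2 lower. Of 7 markers of fibroblasts and mural cells, 5 were higher and 1 lower. The part of these cells in the levels of Ptges, Ptgis and other genes that rose was not tested. The thromboxane synthase Tbxas1 (-0.15 ± 0.09, adjusted p = 0.143) and Ptgds (0.34 ± 0.39, adjusted p = 0.457) did not pass. Ptges was at 0.392 to 1.81 CPM in healthy and 4.48 to 8.17 CPM in control EAE, without overlap.

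Hpgd, the 15-hydroxyprostaglandin dehydrogenase that starts the inactivation of prostaglandins, was at 317 to 374 CPM in healthy (median 349) and 18.2 to 69.3 CPM in control EAE (median 44.6), and fell by 2.97 ± 0.37 (adjusted p = 2.99e-06). Of its list of 7 export, uptake and breakdown genes, 3 fell, the others being Abcc1 (-0.77 ± 0.12), which exports leukotriene C4, and Zadh2 (-0.42 ± 0.11). The prostaglandin transporter Slco2a1 rose (5.33 ± 0.64) from a median of 0.034 to 1.99 CPM. No healthy library reached the level of the low-count filter for Slco2a1, Dpep1 or Dpep2, which passed it through EAE libraries and so had to differ from healthy.

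Of 11 receptors tested, 4 rose and 2 fell. The prostaglandin E2 receptors Ptger4 (3.21 ± 0.34, adjusted p = 6.53e-07) and Ptger2 (3.87 ± 0.50), the prostaglandin D2 receptor Ptgdr2 (1.34 ± 0.21) and the prostacyclin receptor Ptgir (4.83 ± 0.81) rose. The cysteinyl leukotriene receptor Cysltr1 (-1.90 ± 0.25) and the prostaglandin E2 receptor Ptger3 (-3.92 ± 0.68) fell. Ptger4 was at 1.39 to 3.83 CPM in healthy and 18.6 to 27.1 CPM in control EAE. Ptger3 was at 1.06 to 3.71 and 0 to 0.466 CPM. Ptgdr2 shares 39.0% of its exon length with the opposite-strand gene Ccdc86 (up to 4752 counts in a library). Its counts are uncertain if counting ignored strand.

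Of 13 lipoxygenase, leukotriene and epoxide genes, 7 rose and 4 fell. Cyp4f18, which oxidises leukotriene B4 in mouse (3.25 ± 0.31), and the dipeptidase Dpep2 (5.01 ± 0.53), of a family that converts leukotriene D4, rose. The gamma-glutamyltransferase Ggt5, which makes leukotriene D4 (-1.24 ± 0.15), Cyp2j9 (-0.96 ± 0.22), Alox8 (-1.30 ± 0.36) and Cyp2j6 (-0.74 ± 0.28) fell. Of 13 other phospholipases A and PAF acetylhydrolases, 7 rose, among them Pla2g16 (1.77 ± 0.19), the phosphatidylserine-specific Pla1a (5.10 ± 0.59) and the secreted Pla2g12a (0.87 ± 0.11). Pafah1b1 (-0.53 ± 0.11), Pla2g4b (-1.51 ± 0.37), Pla2g3 (-1.46 ± 0.43) and Pla2g4e (-1.09 ± 0.44) fell. Pla2g4b shares 66.5% of its exon length with the same-strand gene Gm28042, so its counts are uncertain.

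Of 14 phospholipases C and D, 8 fell, among them Pld1 (-1.39 ± 0.14), which makes phosphatidic acid, and Plcb3 (-0.81 ± 0.13). The lysosomal Pld3 rose (3.12 ± 0.37) from 140.0 to 214 CPM in healthy to 802 to 1703 CPM. Of 13 genes of arachidonate supply and return, 7 fell, among them Lpcat2 (-1.01 ± 0.11), which makes PAF, and the desaturase Fads1 (-0.59 ± 0.08). The monoacylglycerol lipase Mgll (1.46 ± 0.21) and the elongase Elovl5 (0.40 ± 0.10) rose. Among these lists, the call of Pla2g4e was lost on leaving out any of 9 libraries in turn and that of Cyp2j6 on leaving out any of 4, with highest adjusted p = 0.0838 and 0.0669. Pla2g4e did not pass without the low-count filter either (adjusted p = 0.0532).

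In metformin against control EAE, 19 of the 80 genes (23.8%) passed (8 higher, 11 lower), and 16 of 81 (19.8%) without replicate 22 (6 higher, 10 lower). These shares are near those of all genes (24.6% and 18.3%), so the counts are no result about the pathway. The comparison asks what metformin changes in diseased cord. Hpgd rose by 1.60 ± 0.35 (adjusted p = 0.00451), or 1.37 ± 0.33 (adjusted p = 0.0105) without replicate 22. It was at 63.9 to 219 CPM in the 5 other metformin libraries and 230 CPM in replicate 22, and the lowest of them overlapped control EAE. Cysltr1 rose by 1.10 ± 0.24, or 0.85 ± 0.21 without replicate 22, and its metformin libraries (7.03 to 11 CPM, and 18.1 in replicate 22) lay above all control EAE libraries (2.23 to 6.53 CPM). It was the only receptor of 11 to pass. Lpcat2 (0.67 ± 0.10, or 0.58 ± 0.09 without replicate 22) and Pld1 (0.85 ± 0.14, or 0.71 ± 0.12) rose as well, and for both every metformin library was above every control EAE library.

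Of the 16740 genes tested, 2087 were higher and 2024 lower in metformin against control EAE, to be set beside the counts of each list here and below. Of the 9 prostanoid synthases 3 fell with metformin: Ptges2 (-0.38 ± 0.09), Ptgis (-0.93 ± 0.26) and Ptges (-1.0 ± 0.33). Their changes without replicate 22 were -0.38, -0.80 and -0.80, and all 3 passed. Ptgds passed when replicate 22 was left out (-1.21 ± 0.33, adjusted p = 0.0176) and not with it (-0.75 ± 0.39). Of 13 lipoxygenase, leukotriene and epoxide genes, the soluble epoxide hydrolase Ephx2 (-1.22 ± 0.28), the glutathione transferase Mgst3 (-0.53 ± 0.13), Dpep1 (-2.33 ± 0.73) and Dpep2 (-1.18 ± 0.41) fell and none rose. Dpep1 reached the level of the low-count filter in 6 control EAE libraries, 3 metformin libraries and 0 healthy libraries. The filter therefore also bears on the change of Dpep1 in this comparison.

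Of 13 phospholipases A and PAF acetylhydrolases, Pla2g12a (-0.66 ± 0.11), Pla1a (-1.48 ± 0.48) and Pafah1b3 (-0.25 ± 0.09) fell and Pla2g4b (1.32 ± 0.37) and Pla2g3 (1.29 ± 0.44) rose. Among 14 phospholipases C and D, Plcg1 (0.29 ± 0.09) and Plcg2 (0.43 ± 0.14) rose beside Pld1. Mgll fell (-0.79 ± 0.21). Without replicate 22, Ephx2 (-1.18 ± 0.30), Mgst3 (-0.47 ± 0.12), Dpep1 (-2.06 ± 0.65), Pla2g12a (-0.60 ± 0.11), Pla1a (-1.23 ± 0.35), Mgll (-0.65 ± 0.17) and Pla2g4b (0.99 ± 0.34) passed again. The acyl-CoA synthetase Acsl1 passed then (0.29 ± 0.08, adjusted p = 0.0211) and not with all libraries (0.23 ± 0.09). The calls of Dpep2 (-0.99, adjusted p = 0.0705), Pafah1b3 (-0.21, 0.106), Pla2g3 (0.53, 0.227), Plcg1 (0.22, 0.0627) and Plcg2 (0.37, 0.0759) were lost without replicate 22, where the first number is the change and the second the adjusted p. The call of Ptges was lost on leaving out any of 5 libraries (highest adjusted p = 0.0730), that of Pla1a on any of 4 and that of Dpep1 on either of 2. Dpep2, Plcg2 and Pafah1b3 lost theirs on any of 9, 6 and 11. By DESeq2's Wald test Dpep1 did not pass (-2.31, adjusted p = 0.0865). Without the low-count filter Pla1a (adjusted p = 0.0579) and Pafah1b3 (0.0821) did not pass, and with library totals alone Ptges (0.0604), Ptges2 (0.269), Dpep2 (0.0635) and Pafah1b3 (0.772) did not. Pla2g3 did not pass with the run of library numbers as a term (1.13, adjusted p = 0.0717), and Pla2g3 (0.0803), Pafah1b3 (0.102), Plcg1 (0.0519) and Plcg2 (0.0549) did not when only these 2 groups were fitted.

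**Figure D4:**
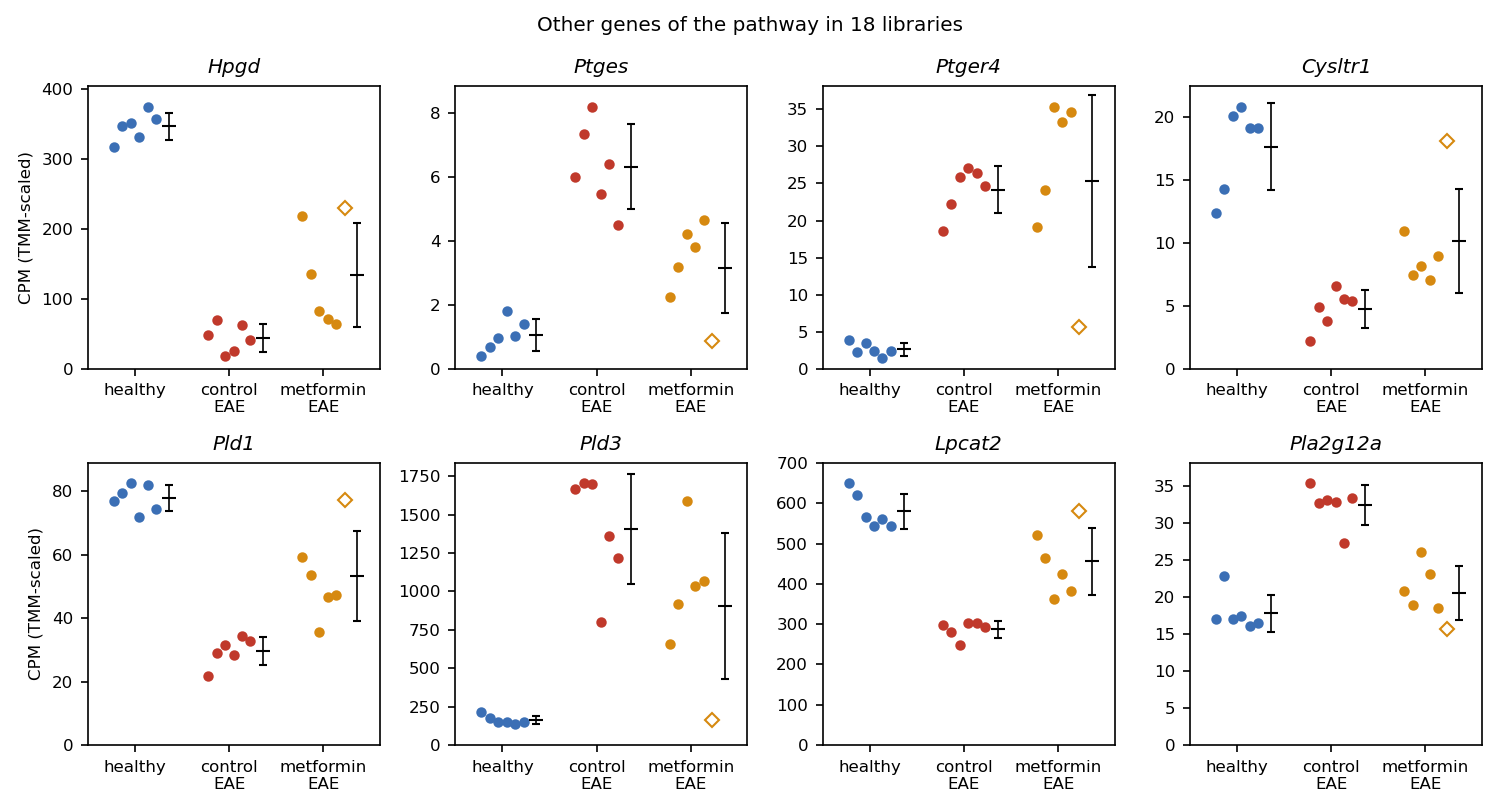
TMM-adjusted CPM (vertical axes, linear from 0) of 8 other pathway genes in each library, by group; the 8 were picked after their values were seen. Points are libraries, open diamonds are the library labelled metformin EAE replicate 22, and black bars are the mean with its SD (n = 6). Hpgd is at 317 to 374 CPM in healthy and 18.2 to 69.3 CPM in control EAE, and its metformin libraries spread from 63.9 to 230 CPM.

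In metformin against healthy, 35 of the 80 genes (43.8%) passed (21 higher, 14 lower), and 48 of 81 (59.3%) without replicate 22 (24 higher, 24 lower), beside 36.6% and 46.3% of all genes. Each of the genes named here as higher or lower passed both ways and in the same direction. Each has its change and SE from all libraries, and the last value is its change without replicate 22. Hpgd was lower (-1.38 ± 0.35, adjusted p = 0.00506, and -1.60), as was Abcc1 (-0.46 ± 0.12, -0.50), and Slco2a1 was higher (5.37 ± 0.64, 5.60). The receptors Ptger4 (3.28 ± 0.35, 3.49), Ptger2 (2.93 ± 0.50, 3.17), Ptgdr2 (1.23 ± 0.21, 1.35) and Ptgir (4.30 ± 0.80, 4.55) were higher, and Ptger3 (-4.34 ± 0.70, -4.62), Cysltr1 (-0.80 ± 0.24, -1.05) and Ptgfr (-1.63 ± 0.60, -2.13) lower. Of the prostanoid synthases, Ptges (1.59 ± 0.35, 1.79) and Ptgis (0.99 ± 0.27, 1.12) were higher. Cyp4f18 (2.74 ± 0.30, 2.94), Dpep2 (3.83 ± 0.52, 4.02) and Dpep1 (3.15 ± 0.95, 3.42) were higher and Ggt5 (-1.03 ± 0.15, -1.20) lower. Of phospholipases, Pla2g16 (1.52 ± 0.19, 1.65), Pla1a (3.63 ± 0.57, 3.87), Pafah1b3 (0.37 ± 0.09, 0.42) and Pld3 (2.48 ± 0.36, 2.70) were higher, and Plcb3 (-0.58 ± 0.13, -0.66), Pld1 (-0.55 ± 0.14, -0.68) and Plcd4 (-0.33 ± 0.12, -0.44) lower. Of arachidonate supply and return, Fads1 (-0.40 ± 0.08, -0.47), Fads2 (-0.80 ± 0.17, -0.91), Lpcat3 (-0.42 ± 0.09, -0.48), Lpcat2 (-0.35 ± 0.10, -0.43) and Dagla (-0.55 ± 0.17, -0.60) were lower, and Acsl1 (0.31 ± 0.09, 0.37), Elovl5 (0.33 ± 0.10, 0.39), Mgll (0.67 ± 0.21, 0.81) and Acsl4 (0.56 ± 0.19, 0.57) higher. Of these, Ptgfr and Plcd4 each lost the call on leaving out any of 8 libraries, Acsl4 on any of 5, and Dpep1 and Mgll on 1 each (metformin EAE replicates 21 and 13). Without the low-count filter Ptgfr (adjusted p = 0.0567) and Plcd4 (0.0529) did not pass, and with library totals alone Acsl1 (0.281), Elovl5 (0.229), Acsl4 (0.226) and Pafah1b3 (0.172) did not. Exons of Ptgdr2, Plcd4, Ptger4, Pla2g4b, Lpcat3, Cyp4f18, Pla2g3, Ptgis, Plcg1, Ptger2, Dpep2, Mgll, Slco2a1 and Plcb3 overlap genes on the opposite strand. The overlap with 1 such gene covers 39.0% of the exon length of Ptgdr2, 29.8% of Plcd4, 15.3% of Ptger4, 13.6% of Pla2g4b, 10.2% of Lpcat3 and at most 9.76% of the others.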

How the data were processed

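The 18 RNA libraries are those described above. The submitters' processing notes name bcl2fastq 2.17, FastQC, Trimmomatic and the build mm10. The aligner, the counter and its annotation are not stated there. The authors deposited whole-number counts per Ensembl gene. Symbols, positions and exon lengths came from GENCODE M21 and promoters from RefSeq (GRCm38.p6). Motifs of interferon regulatory factors and of NF-kappaB were also searched in the promoters, matched no member and were then dropped from the set.

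Counts entered 1 fit of all 18 libraries with edgeR 4.0.16 (TMM, robust quasi-likelihood F test, filterByExpr with a minimum count of 10 and total of 15, R 4.3.3), with group as the only term and Benjamini-Hochberg adjusted p under 0.05 over 16740 genes. The SE of a change was its absolute value over the root of its F statistic. The code of the fit was tested on simulated counts in which far fewer genes changed than were called here. That test bears on the code and not on the scaling or the calls in these data. Counts are of PCR-amplified reads, so intervals cover counting error only. No 2 replicates differed by as little as sampling noise (lowest chi-square per degree of freedom 15.5).

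The members and lists were chosen with earlier results of these data known. Named genes were the members, the 3 called genes of smallest p per list and comparison, and all called in 1 direction where there were 5 or fewer. One gene of those most like Alox5 is not reported here. Alternatives were DESeq2 1.42.0 (size factors, Wald test), library totals alone, no filter, at least 30 counts in 6 libraries, 2 groups only, runs of library numbers (1 to 6, 9 to 14, 17 to 22) as a term or separately, and leaving out each library.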

Additional observations from a re-analysis of the deposited data

Results flagged for a closer look

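In 72 groups of 6 libraries, the highest or lowest library was set against the rest of its group by Dixon's criterion, which chance meets in about 1 of 20 groups, and 12 values, in 6 libraries, were beyond it. Among the members, Ptgs1 was at 686 CPM in metformin EAE replicate 22 (next 427) and Ltc4s at 49.7 CPM in the same library (next 23.7). Ptgs2 was at 0.958 CPM in metformin EAE replicate 21 (next 0.427) and at 0.035 CPM in healthy replicate 4 (all others 0). Alox5ap was at 219 CPM in healthy replicate 3, the lowest of its group (next 260.3).

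The other 7 were sums of marker levels. Metformin EAE replicate 22 had the highest sums in its group for neurons (495 CPM, next 274), platelets and megakaryocytes (23.5, next 8.42) and mast cells and basophils (0.018, all others 0). Control EAE replicate 9 had the highest sum for border macrophages (107, next 69.1) and control EAE replicate 10 for B and plasma cells (21.8, next 12.2). Healthy replicate 4 had the lowest sum for astrocytes (487, next 522) and the highest for endothelial cells (23.3, next 11.5).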

How the results depend on the processing

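Control EAE against healthy called 10452 genes, and 10021 to 10731 with a library left out. Metformin against control EAE called 4111, 3096 to 4272 with a library left out and 2703 when only those 2 groups were fitted. Metformin against healthy called 6135, and 4980 to 7821. DESeq2 called 10702, 4737 and 6714, and the fit with the run of library numbers as a term 10693, 4602 and 6700. Pathway genes called in metformin against control EAE numbered 19, 36 with library totals alone, and 12 to 22 with a library left out (12 without metformin replicate 6). Library totals alone moved the median of all genes by -0.42, 0.22 and -0.20 in the 3 comparisons, and the share of calls that were higher from 50.8% to 23.1%, from 50.8% to 88.4% and from 55.5% to 28.7%. With them Pla2g15 was -0.58 and Hpgds -0.73 in control EAE against healthy, Pla2g15 was -0.35 in metformin against healthy, and Elovl5 turned from higher to -0.035.

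In metformin against control EAE, Pla2g15 was 0.01 and ranged from -0.067 to 0.058 with a library left out, was -0.13 within library numbers 1 to 6 and -0.12 within 17 to 22. Within numbers 9 to 14, Ltc4s (-0.40), Hpgds (-0.26) and Alox5ap (-0.28) turned lower. Ltc4s ranged from -0.092 to 0.50 and Ptgs2 from 0.92 to 2.16 with a library left out. Hpgds was 0.075 in metformin against healthy within numbers 1 to 6. Ptgs1, Alox5 and Pla2g4a stayed higher in metformin than in control EAE, from 0.61 to 0.89, 0.68 to 1.0 and 0.66 to 0.85 with a library left out. The cause of these shifts was not tested. Among values for single genes, 2807 kept direction and, where an adjusted p-value was at hand, the call. A further 99 lost the call, 6 gained it and 14 turned direction. Values within single runs of library numbers had no test and were counted by direction alone, as were those without an adjusted p-value. No pairing of single libraries is labelled, and the groups share no replicate numbers. Each run of library numbers holds libraries of all groups, and the fit with the run as a term, given above, treats the runs as blocks. What the runs stand for is not labelled. Low counts limit Ptgs2, and Pla2g2d in healthy libraries.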
